A study of Mus with 6 samples.

Results

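The interstitial collagens described here are 10 genes taken from a fixed list of Ensembl IDs: Col1a1, Col1a2, Col3a1, Col5a1, Col5a2, Col6a1, Col6a2, Col6a3, Col11a1 and Col12a1. All 10 were found in the count table, which lists 15646 genes, and all 10 passed the filter on low counts that left 14348 genes for testing. Their counts came from RNA sequencing of pancreatic tumors of the orthotopic kind, in which cancer cells are implanted into the pancreas itself. The implanted cells were KPC1199, a mouse pancreatic ductal adenocarcinoma (PDAC) line, and 1 line was used in all hosts. The hosts were genetically obese ob/ob mice, which lack functional leptin, or lean wild-type (WT) mice, with 3 libraries in each group. No drug treatment, diet, age, sex or strain is given in the sources used here. The comparison asks how transcript levels in the tumor differ between obese and lean hosts.

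Collagens are secreted proteins built from alpha chains wound into a helix. Types I and III form the banded fibrils of connective tissue, types V and XI lie within such fibrils and limit their diameter, type VI forms beaded filaments around cells, and type XII coats fibril surfaces and links them to the surrounding matrix. Pancreatic ductal adenocarcinoma is known for a dense, collagen-rich stroma, made largely by cancer-associated fibroblasts. The libraries are of whole tumor RNA, in which fewer cells of a type and less RNA per cell cannot be told apart.

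The libraries held 7122533 to 8521244 counts, and the groups overlapped in depth. No label names a batch. Names follow the numbers in the titles: lean 1, 2 and 3 and obese 1, 3 and 4. Nothing in the labels says that they came from separate mice, so the spread behind each p-value is that between these samples and may be technical. Squared differences between libraries of a group were averaged over genes with a mean of at least 10 counts in the pair, scaled by total counts. They were 7.57 to 14.9 times those expected from counting alone. The highest values, 14.4 and 14.9, were those of obese 3 with the other obese libraries. Main values are therefore also given without obese 3, an alternative chosen after seeing the data for the shares of collagen counts and for the median below. The labelled tissue was not checked against cell markers, because the gene table used here pairs 0 of the Ensembl IDs with a symbol. The part of fibroblast content in the values below was not tested.

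None of the 10 interstitial collagens passed the test between hosts (edgeR quasi-likelihood test, adjusted p under 0.05 over all genes tested). Of all genes tested, 20.8% were called, 10.3% higher and 10.6% lower in obese hosts. Leaving out lean 2 or lean 3 lowered that share to 7.99% or 10.4%, and leaving out obese 1 or obese 4 lowered it to 9.92% or 13.2%. DESeq2 and limma-voom also called 0 of the 10, where they called 19.2% of the 15646 genes listed and 21% of the genes tested. Col5a2 came closest in both and missed narrowly (adjusted p = 0.0514 in DESeq2 and 0.0512 in limma-voom). An edgeR fit with a block on the replicate number called Col5a2 and Col12a1 lower and Col6a3 higher, where 14.5% of all genes were called. The groups share only the numbers 1 and 3, and no label pairs the libraries. Leaving out 1 library gave 2 collagens called lower without obese 4 (Col5a2 and Col12a1), 1 without lean 3 (Col11a1) and 0 in the other 4 cases. At an unadjusted p under 0.05 the edgeR test would have counted 4 of them (Col1a2, Col5a2, Col11a1 and Col12a1), where 36.2% of all genes tested reached that level. The fitted log2 fold change, obese minus lean, was negative for 8 collagens and positive for Col5a1 and Col6a3. Those of Col5a1 and Col6a2 lay close to 0 and changed sign with the scaling (Col5a1 with RLE factors, Col6a2 with total counts only). The median over the 10 genes was -0.22 (-0.16 without obese 3), beside 0.01 for all genes tested. For 4 collagens, Col1a1, Col1a2, Col3a1 and Col5a2, every obese library was below every lean library, a pattern that 20.0% of all genes tested showed. This was seen with levels scaled by edgeR's TMM factors. Relative to total counts alone, the groups overlapped for Col1a1 and Col3a1, with lean 3 below obese 1.

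The size of change that the 95% intervals left possible differed among the collagens. For 7 of them, Col1a1, Col1a2, Col3a1, Col5a1, Col6a1, Col6a2 and Col6a3, the 95% interval of the fold change lay within a 1.5-fold change in either direction, which held for 33.1% of all genes tested. Col1a2 and Col6a3 only just qualified. The lower log2 limit of Col1a2 was -0.583 and the upper limit of Col6a3 was 0.575, where 1.5-fold is 0.585. This count was not repeated with other settings. The intervals of Col5a2, Col11a1 and Col12a1 reached beyond 1.5-fold on the lower side. Reaching beyond it is not the same as low precision. The SE of Col5a2, 0.128, was below those of Col6a1 (0.136) and Col6a3 (0.166), and its log2 fold change was further from 0. These intervals are for single genes and are not adjusted for the number of genes. The plot of fitted differences shows them together.

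**Figure D1:**
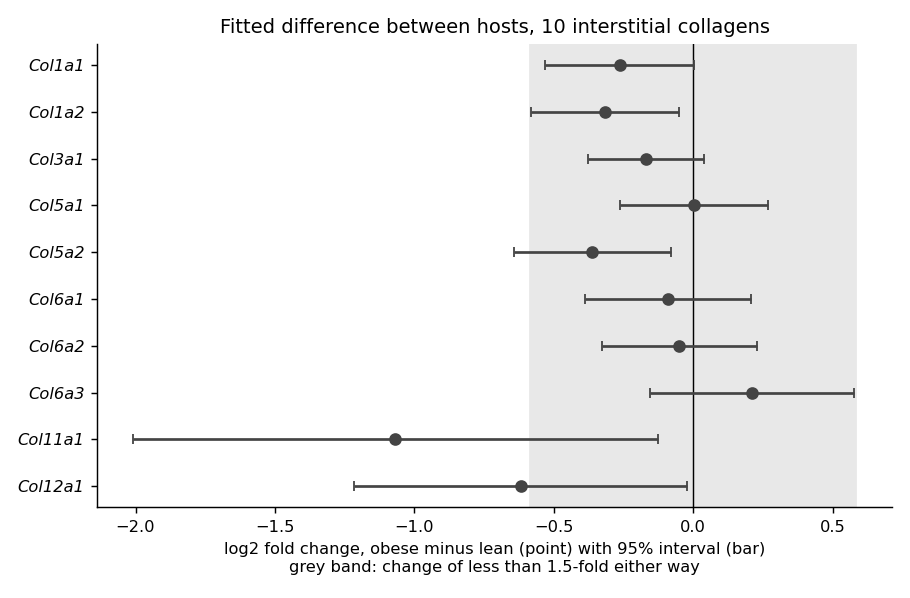
Fitted log2 fold change, obese minus lean, for each of the 10 interstitial collagens (point, 3 libraries per group) with its 95% interval (bar). The grey band marks changes under 1.5-fold; the intervals of Col5a2, Col11a1 and Col12a1 leave it on the lower side, and that of Col11a1 is the widest, from -2.01 to -0.13.

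Type I collagen is the main fibril-forming collagen and is assembled from the products of Col1a1 and Col1a2. Col1a1 (ENSMUSG00000001506.10; chr11:94936224-94953042, GRCm38, the whole gene with its exons, introns and untranslated regions, as for all positions here) was measured in CPM, its counts relative to the size of the library as scaled by edgeR's TMM factors. It stood at 2115, 2177 and 1949 CPM in lean 1, 2 and 3 and at 1876, 1446 and 1880 CPM in obese 1, 3 and 4. At this scaling the obese libraries were all lower than the lean ones, obese 3 by the widest margin. Relative to total counts alone, lean 3 lay below obese 1 and obese 4. The lean mean was 2080 ± 118 CPM and the obese mean 1734 ± 249 CPM (SD, n = 3 each). The fitted log2 fold change was -0.26 (SE 0.12, 95% interval -0.53 to 0.00, edgeR adjusted p = 0.144). Without obese 3 the log2 fold change was -0.14 (edgeR adjusted p = 0.307).

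Col1a2 (ENSMUSG00000029661.16; chr6:4505618-4541543), which encodes the other chain of type I collagen, had 1064, 1342 and 1107 CPM in lean 1, 2 and 3. In obese 1, 3 and 4 it had 986, 827 and 1008 CPM. The groups again did not overlap, with lean 2 highest and obese 3 lowest. The fitted obese level was 0.803 times the lean level, a log2 fold change of -0.32 (SE 0.12, 95% interval -0.58 to -0.05, edgeR adjusted p = 0.0857). It was -0.21 without lean 2 (edgeR adjusted p = 0.305), the library with the highest Col1a2 level, and -0.23 without obese 3 (edgeR adjusted p = 0.177).

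Col3a1 (ENSMUSG00000026043.18; chr1:45311538-45349706) encodes the single chain of type III collagen, which forms fibrils together with type I. Its levels were 1675, 1657 and 1527 CPM in lean 1, 2 and 3 and 1475, 1392 and 1456 CPM in obese 1, 3 and 4. This was a narrow separation, in which the lowest lean library lay 1.03-fold above the highest obese library. It was not kept relative to total counts alone, where lean 3 lay below obese 1. The group means were 1620 ± 81.0 and 1441 ± 43.8 CPM (SD, n = 3 each). The log2 fold change of -0.17 had an SE of 0.09 and a 95% interval of -0.38 to 0.04, and did not pass the test (edgeR adjusted p = 0.223). Without obese 3 it was -0.14 (edgeR adjusted p = 0.315).

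**Figure D2:**
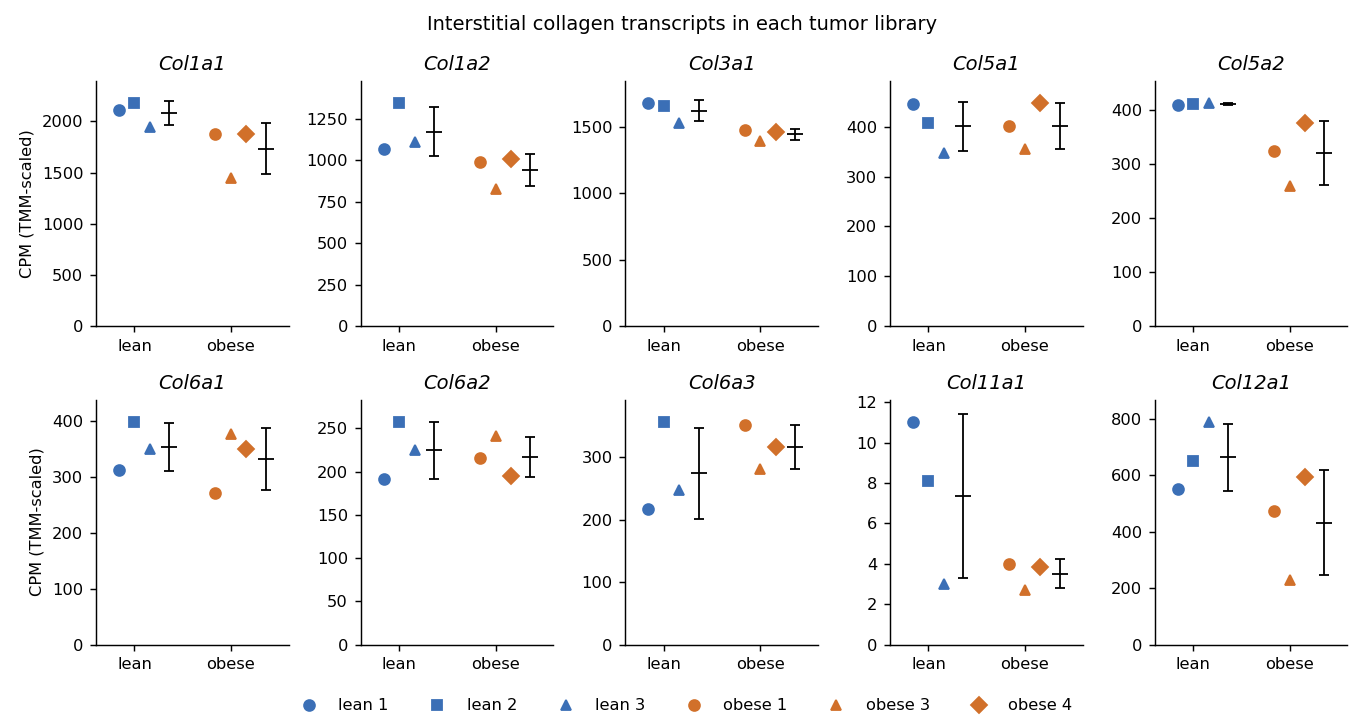
CPM, scaled by TMM factors, of each interstitial collagen in the 6 libraries (blue lean, orange obese; marker shapes give the library number; black lines, group mean ± SD, n = 3). At this scaling the groups do not overlap for Col1a1, Col1a2, Col3a1 and Col5a2, and obese 3 is the lowest library for 6 of the 10 genes. Relative to total counts alone, the groups overlap for Col1a1 and Col3a1.

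Type V collagen is a minor component that is co-assembled with type I and starts fibril formation. Col5a2 (ENSMUSG00000026042.16; chr1:45374331-45503282) lies 24624 bases from Col3a1 on the same chromosome. The lean libraries gave nearly the same level, 410, 411 and 413 CPM, and the obese libraries gave 324, 259 and 376 CPM (obese 1, 3 and 4). With TMM scaling, the variance among lean libraries was 0.0481 times that expected from counting alone, and that among obese libraries 89.8 times. Thus all obese libraries were lower than all lean ones, and the spread was on the obese side. Over 3 libraries and at 1 scaling, the low lean ratio does not show that the lean level was constant. The log2 fold change was -0.36 (SE 0.13, 95% interval -0.64 to -0.08) and missed the threshold (edgeR adjusted p = 0.0658, DESeq2 adjusted p = 0.0514, limma-voom adjusted p = 0.0512). The value depended on single obese libraries. It was -0.22 without obese 3 (edgeR adjusted p = 0.138), and -0.50 without obese 4, where Col5a2 passed (edgeR adjusted p = 0.0316).

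Col5a1 (ENSMUSG00000026837.16; chr2:27886381-28039510), the other type V chain measured, showed no such separation. It had 447, 409 and 348 CPM in lean 1, 2 and 3 and 401, 356 and 447 CPM in obese 1, 3 and 4. The ranges covered almost the same interval, and the means were 401 ± 49.8 and 402 ± 45.6 CPM (SD, n = 3 each). The log2 fold change was 0.00 (SE 0.12, 95% interval -0.26 to 0.27, edgeR adjusted p = 0.992). Without obese 3 it was 0.09 (edgeR adjusted p = 0.642). The whole Col5a1 gene, introns included, overlaps an annotated long noncoding RNA, Gm13372, over 14860 bases. Whether their exons overlap was not checked and strand handling is not known, so an effect on the Col5a1 counts was not tested. The other collagens overlapped no other gene of the table used.

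Col11a1 (ENSMUSG00000027966.20; chr3:114030479-114220756) encodes a type XI chain that is close kin to the type V chains and is used as a marker of activated cancer-associated fibroblasts. It was the scarce member, with 93, 57 and 24 counts in lean 1, 2 and 3 and 34, 22 and 32 counts in obese 1, 3 and 4. These were 11.0, 8.09 and 3.0 CPM for lean 1, 2 and 3, and 3.99, 2.69 and 3.86 CPM for obese 1, 3 and 4. Lean 1 and lean 2 were above all obese libraries, whereas lean 3 lay among them. Exact Poisson 95% intervals, which cover counting error only, were 8.90 to 13.5 CPM for lean 1 and 1.92 to 4.47 CPM for lean 3, so these libraries differed by more than counting error. The interval of lean 2, 6.121 to 10.47 CPM, overlapped that of lean 1 and not that of lean 3. The log2 fold change of -1.07 was the furthest from 0 among the collagens, and its error was the greatest (SE 0.43, 95% interval -2.01 to -0.13, edgeR adjusted p = 0.0978). Without lean 3 it was -1.44 and passed (edgeR adjusted p = 0.0258). Without lean 1 it was -0.65 (edgeR adjusted p = 0.334), and without obese 3 it was -0.90 (edgeR adjusted p = 0.189).

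Type VI collagen is assembled from chains of 3 of the genes, Col6a1, Col6a2 and Col6a3, and anchors cells to the surrounding matrix. Col6a1 (ENSMUSG00000001119.7; chr10:76708792-76726044) had 313, 399 and 350 CPM in lean 1, 2 and 3 and 271, 377 and 349 CPM in obese 1, 3 and 4. Col6a2 (ENSMUSG00000020241.13; chr10:76595756-76623630), 85161 bases away from it, had 192, 257 and 225 CPM in the lean and 215, 241 and 195 CPM in the obese libraries. For both genes the groups overlapped over most of their range, and obese 3 was the highest of the obese libraries. The log2 fold changes were -0.09 for Col6a1 (95% interval -0.39 to 0.21, edgeR adjusted p = 0.668) and -0.05 for Col6a2 (95% interval -0.33 to 0.23, edgeR adjusted p = 0.811). Without obese 3 they were -0.18 for Col6a1 (edgeR adjusted p = 0.357) and -0.13 for Col6a2 (edgeR adjusted p = 0.524).

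Col6a3 (ENSMUSG00000048126.16; chr1:90766860-90844001) encodes the largest type VI chain, whose cleaved end is the peptide endotrophin, a product known from adipose tissue and tumors. It had 218, 357 and 248 CPM in lean 1, 2 and 3, and 352, 282 and 316 CPM in obese 1, 3 and 4. Every obese library was above lean 1 and lean 3, and every one was below lean 2. The log2 fold change was 0.21 (SE 0.17, 95% interval -0.16 to 0.58, edgeR adjusted p = 0.394). It was 0.44 without lean 2 (edgeR adjusted p = 0.0672) and 0.07 without lean 1 (edgeR adjusted p = 0.804), so its size depended on which lean library was included. Without obese 3 it was 0.29 (edgeR adjusted p = 0.245). With the block on the replicate number it was 0.44 and passed (edgeR adjusted p = 0.0477).

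Col12a1 (ENSMUSG00000032332.17; chr9:79598987-79721141), the chain of the fibril-associated type XII collagen, was the most variable of the abundant members in obese tumors. It had 552, 650 and 790 CPM in lean 1, 2 and 3 and 473, 228 and 595 CPM in obese 1, 3 and 4. The highest obese library exceeded the lowest lean one, and obese 3 was far below the rest. The coefficient of variation was 43.2% over the obese and 18% over the lean libraries. The log2 fold change was -0.62 (SE 0.27, 95% interval -1.22 to -0.02, edgeR adjusted p = 0.126). Without obese 3 it was -0.31 (edgeR adjusted p = 0.161), and without obese 4 it was -0.92 and passed (edgeR adjusted p = 0.0444).

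**Figure D3:**
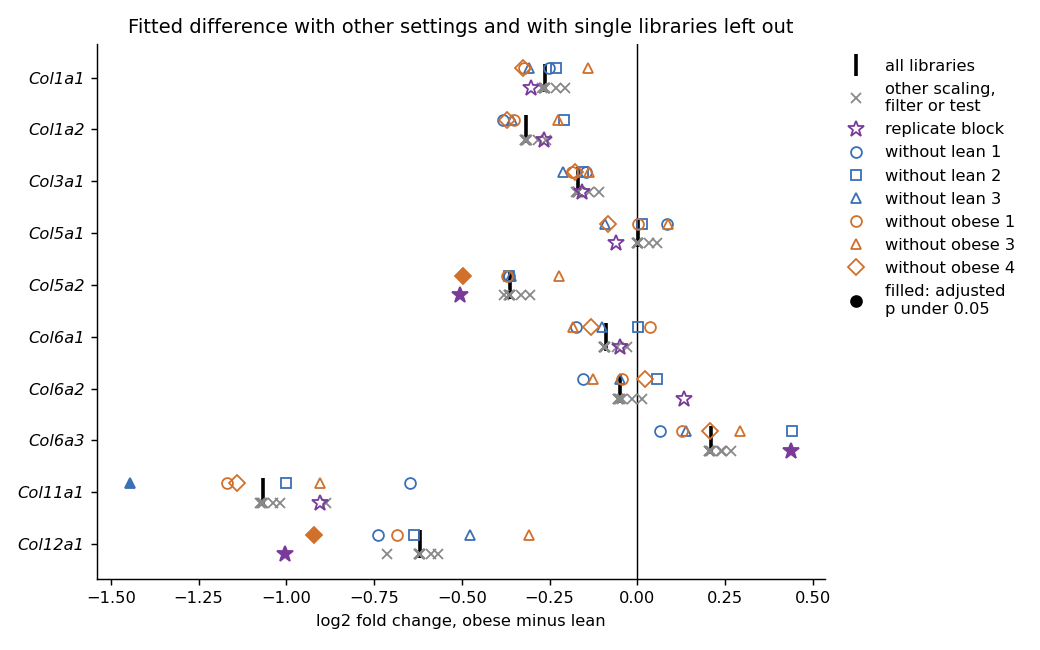
Log2 fold change, obese minus lean, of each interstitial collagen with all libraries (black bar), with other scaling, filters or tests (grey crosses), with the replicate block (purple star) and with 1 library left out (open markers; filled markers and stars have an adjusted p under 0.05). Leaving out obese 3 moved Col12a1 from -0.62 to -0.31 and Col5a2 from -0.36 to -0.22, and without obese 4 both passed the test.

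The 10 genes together held 0.692%, 0.758% and 0.667% of all counts in lean 1, 2 and 3 and 0.646%, 0.568% and 0.661% in obese 1, 3 and 4. The obese shares were all lower, although obese 4 and lean 3 were nearly equal. The lean mean was 0.705% ± 0.0472 and the obese mean 0.625% ± 0.0504 (SD, n = 3 each). No test was made on this sum, because the genes were chosen with earlier results known. The difference in means was -0.0804 percentage points with all libraries and -0.0516 without obese 3. Types I and III made up 67.6% ± 1.77 of them in tumors of lean hosts and 67.1% ± 1.35 in those of obese hosts (SD, n = 3 each). Type VI genes made up 11.8% ± 1.45 in lean and 14.2% ± 2.06 in obese hosts (SD, n = 3 each), with 16.6% in obese 3. The mean of obese 1 and 4 alone was 13.1% for type VI and 66.8% for types I and III. Col12a1 made up 9.24% ± 1.85 in lean and 6.87% ± 2.43 in obese hosts (SD, n = 3 each), and 8.2% as the mean of obese 1 and 4. It held 4.22% of the collagen counts in obese 3 and 7.42% to 11.3% in the other 5 libraries. These shares are of counts, in which longer transcripts weigh more, so they do not rank the genes by number of transcripts.

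**Figure D4:**
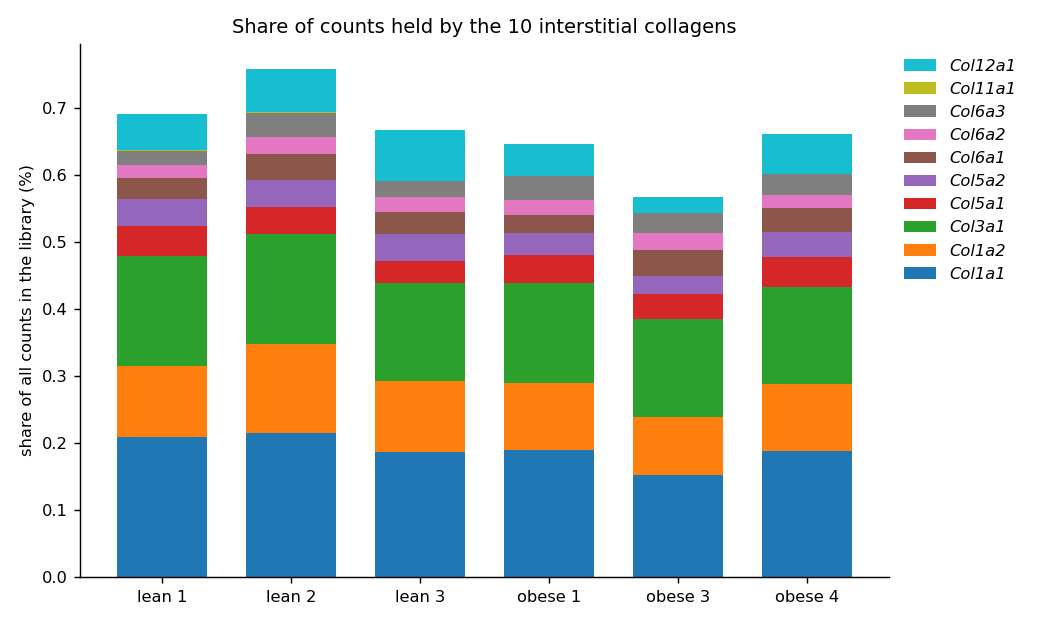
Share of all counts in each library (percent) held by the 10 interstitial collagens, stacked by gene. The bars reach 0.667% to 0.758% in lean and 0.568% to 0.661% in obese libraries, with obese 3 the lowest.

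Ratios between collagens of 1 library do not depend on the scaling of the library, and 8 pairs were tested with a two-sided exact permutation test. With 3 against 3 libraries this test cannot go below 0.1. The ratio of Col5a2 to Col5a1, the chains of type V collagen, was 0.917, 1.01 and 1.19 in lean 1, 2 and 3 and 0.808, 0.726 and 0.841 in obese 1, 3 and 4. All obese ratios were lower, with a mean log2 difference of -0.38 (exact permutation p = 0.1, adjusted over the 8 pairs p = 0.4). The ratio of Col5a1 to Col1a1 was 0.211, 0.188 and 0.178 in the lean and 0.214, 0.246 and 0.238 in the obese libraries. It was higher in all obese libraries, although by little in obese 1, with a mean log2 difference of 0.28 (exact permutation p = 0.1, adjusted p = 0.4). The lowest possible p of 0.1 is above the threshold used for calls, so this test could not have called either ratio. Without obese 3 these differences were -0.32 and 0.23, for which no p-value was computed.

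In the other 6 pairs the groups overlapped. The largest mean log2 difference of the 8 pairs was that of Col11a1 to Col5a1, at -0.90 (exact permutation p = 0.2) and -0.80 without obese 3. The counts of Col11a1 are low, and this difference also depended on the lean library left out. It was -1.355 without lean 3, -0.76 without lean 2 and -0.60 without lean 1. For Col12a1 to Col1a1 the difference was -0.44 (exact permutation p = 0.4), and -0.16 without obese 3. The ratio of Col1a2 to Col1a1, the type I chains, was 0.503 to 0.616 in lean and 0.525 to 0.572 in obese tumors, with a mean log2 difference of -0.04 (exact permutation p = 0.7). That of Col3a1 to Col1a1 was 0.761 to 0.792 in lean tumors and 0.786 and 0.775 in obese 1 and 4, and stood apart at 0.962 in obese 3; its mean log2 difference was 0.10 with all libraries and 0.0033 without obese 3. Within type VI, the ratio of Col6a3 to Col6a1 ran from 0.696 to 0.894 in lean and from 0.748 to 1.30 in obese tumors (exact permutation p = 0.2), the highest value being that of obese 1; its mean log2 difference was 0.33, and 0.51 without obese 3. The ratio of Col6a2 to Col6a1 ran from 0.613 to 0.645 in lean and from 0.557 to 0.794 in obese tumors (exact permutation p = 0.9). The type VI ratios thus spread over a wider range in obese than in lean tumors, a difference in spread that was not tested.

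**Figure D5:**
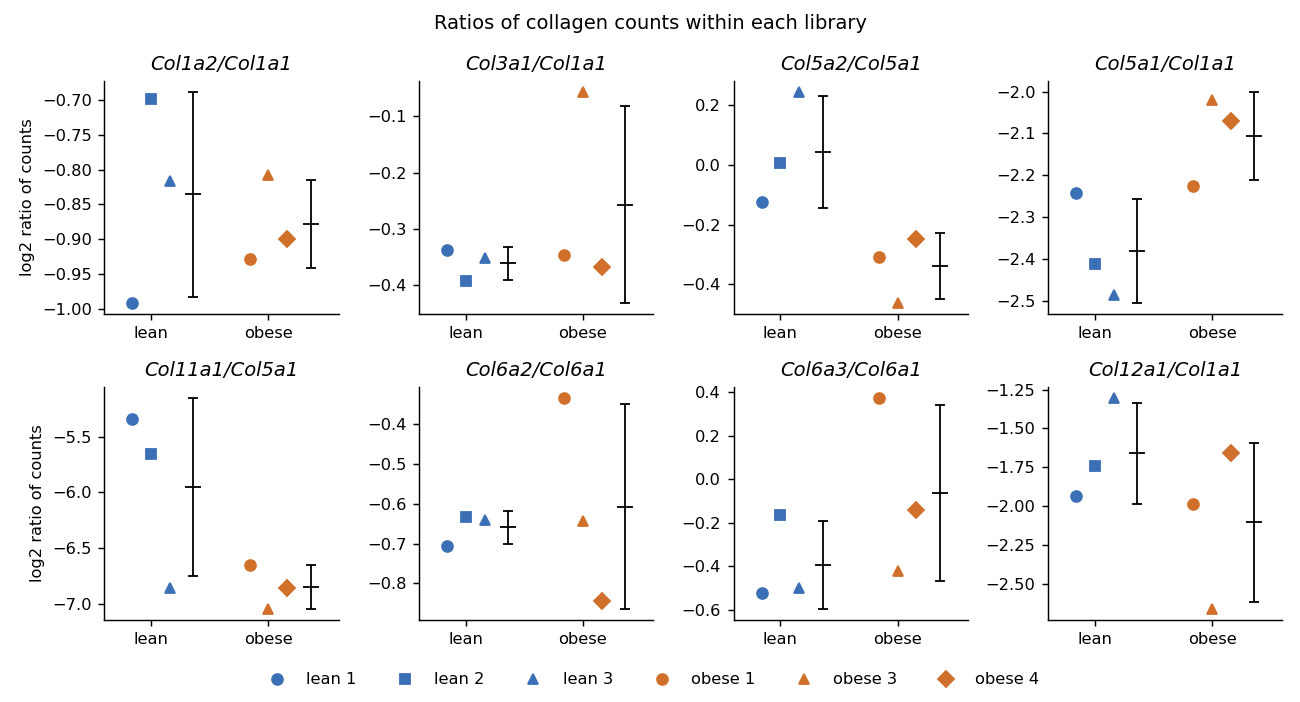
Log2 ratio of the counts of 2 collagens in each of the 6 libraries, for 8 pairs (blue lean, orange obese; marker shapes give the library number; black lines, group mean ± SD, n = 3). The groups do not overlap for Col5a2/Col5a1 and Col5a1/Col1a1, and the Col3a1/Col1a1 ratio of obese 3, at -0.06, lies above the other 5 libraries, which span -0.39 to -0.34.

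The libraries differed in the mean level of the collagens, although the genes did not all move together. Obese 3 was lowest for 6 of the 10 genes (5 with total counts only), and lean 2 was highest for 5 and lowest for 0. For Col6a1 (377 CPM) and Col6a2 (241 CPM), only lean 2 was above obese 3. The mean of the 10 genes, each standardized over the 6 libraries, was 0.23, 0.96 and -0.02 in lean 1, 2 and 3 and -0.27, -0.89 and -0.01 in obese 1, 3 and 4. Lean 3 and obese 4 were thus at nearly the same mean level, although Col12a1 was 790 against 595 CPM and Col5a1 348 against 447 CPM. In this mean profile, lean 2 and obese 3 were the furthest apart. Of the 9638 other genes whose mean reached 10 CPM, ENSMUSG00000037361.8 followed this profile most closely (Pearson's r = 0.999 over the 6 libraries, which share depth and scaling). It had 50.5, 59.9 and 46.7 CPM in the lean and 44.7, 37.8 and 46.8 CPM in the obese libraries, and did not pass the test (edgeR adjusted p = 0.169). The next was ENSMUSG00000054942.13 (r = 0.992, edgeR adjusted p = 0.251). These values of r were the highest among many genes over only 6 libraries and are given as descriptions.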

How the data were processed

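Raw counts per gene for the 6 libraries were deposited by the authors in 1 table. Per the labels' protocols, ribosomal RNA was removed from total RNA, so unspliced RNA can also be counted. CASAVA, STAR and Subread were used with build GRCm38, per the submitters' processing notes; for versions and strand handling, nothing is stated there. Titles starting OB were taken as obese and those starting ND as lean. Of the columns, 0 were left unmapped.

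The test was run in edgeR 4.0.16 (R 4.3.3): expression filter (minimum count 10, minimum total 15), TMM factors, quasi-likelihood F test, two-sided, Benjamini-Hochberg adjustment over 14348 genes, call at an adjusted p under 0.05. The SE is the size of the log2 fold change over the root of F. A prior count of 2 was used for log2 CPM. The test was checked on simulated data, with levels and spread fitted to these libraries. Its power for the collagens themselves was not assessed. Gene positions are from RefSeq GRCm38.p6, matched by symbol. The table has gene spans and no transcript lengths, so levels per length were not computed. Counts are of reads without molecular identifiers, and intervals on them cover counting error only.

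The 10 collagens and all lists were chosen with earlier results of these data known; the rule for named genes was all 10 whatever their values, and the 2 other genes closest to their mean profile. Lists of matrix and cell type genes, kept by symbol, were not used here. Alternatives were no filter, a filter of CPM at least 1 in 3 libraries, upper-quartile factors, RLE factors, total counts only, DESeq2 1.42.0, limma-voom (limma 3.58.1), a block on the replicate number, and each library left out in turn.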

Additional observations from a re-analysis of the deposited data

How the results depend on the processing

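Over 14 alternatives each, the 10 collagens gave 140 fold changes, of which 123 kept their sign and side of the threshold, 6 kept their sign and passed it, and 11 changed sign; the causes were not tested. The sign changes were in Col5a1, Col6a2 and Col6a1, whose main values were 0.00, -0.05 and -0.09. Col5a1 was -0.0013 with RLE factors, -0.0020 with DESeq2 and -0.060 with the replicate block, and -0.092 to 0.087 with 1 library left out. Col6a2 was 0.013 with total counts only, 0.13 with the block, and -0.15 to 0.057 with 1 library left out, and Col6a1 was -0.18 to 0.037. The Col1a2/Col1a1 ratio difference ranged from -0.12 to 0.026 and that of Col6a2/Col6a1 from -0.085 to 0.17 with 1 library left out. Collagens called lower numbered 0 to 2 with 1 library left out (1 without lean 3, 2 without obese 4), and called higher 0 in each. All genes called numbered 1179 (without lean 2) to 3066 (without obese 3), with 1461 without obese 1, 1541 without lean 3 and 1956 without obese 4. With the replicate block, 2 collagens were called lower, Col5a2 (log2 -0.51, edgeR adjusted p = 0.0189) and Col12a1 (-1.0, edgeR adjusted p = 0.0073). Col6a3 was called higher (0.44, edgeR adjusted p = 0.0477). Of all genes tested, 2087 were called with the block, a share of 14.5%. The groups have only numbers 1 and 3 in common, and deviations of like-numbered libraries had correlations of 0.090 and 0.074; the libraries share only a number. The list counts and levels per length were not run. Depth limits Col11a1 most, with a counting error of 15.1% per library.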
